A study of Homo sapiens with 9 samples.

Results

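YAP1, AJUBA and CCDC80 are 3 of the 14812 named genes measured on whole-transcript arrays of human melanoma cells transfected with a miR-199a-3p mimic, a synthetic copy of that microRNA. YAP1 was taken as a reported target of that microRNA, and AJUBA and CCDC80 as genes counted among the targets of YAP and its paralogue TAZ that lay higher at the lower dose of mimic. The last 2 were therefore chosen on their values at 0.25 nM. Those values are given here as a description with no test. The cells were WM266-4, an established line from a melanoma metastasis, here carrying GFP. They were transfected by lipofection with the mimic at 0.5 nM (3 arrays), with the mimic at 0.25 nM (3 arrays), or with a control microRNA at 0.5 nM (3 arrays), in biological triplicate, and RNA was extracted after 48 h. No control of 0.25 nM was among the arrays, and both doses share the same 3 control arrays. The design text sets each dose against the control microRNA.

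A microRNA guides an Argonaute protein to matching sites, mostly in the 3′ untranslated region of messenger RNAs, and can lower the messenger RNA or its translation. YAP1 is a transcriptional coactivator without a DNA-binding domain of its own that works mainly through TEAD factors. The Hippo kinases STK3 and STK4 (MST2 and MST1) activate LATS1 and LATS2, which phosphorylate YAP and TAZ and hold them in the cytoplasm, so much of the control of YAP lies in the protein rather than in its messenger RNA. AJUBA is a LIM-domain adaptor of cell junctions and focal adhesions that can bind LATS kinases and restrain them. CCDC80 is a secreted protein of the extracellular matrix.

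The mature microRNA is shown because its seed, bases 2 to 8 in capitals, is the part that pairs with targets. The RefSeq table (GRCh38.p14) holds it at chr19:10817429-10817450 (MIR199A1) and chr1:172144554-172144575 (MIR199A2), minus strand, and lists the same letters for miR-199b-3p (MIR199B, chr9:128244745-128244766, minus strand). The sequence of the mimic itself is not in the labels.
hsa-miR-199a-3p: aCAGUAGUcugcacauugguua

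The promoters are shown because AJUBA and CCDC80 are counted as genes driven through TEAD. Each window spans a RefSeq start (GRCh38.p14), with most of its bases upstream, on the gene's strand. The capitals mark GGAATG, the core of the TEAD motif, searched on both strands together with TGANTCA, the AP-1 motif, which reads the same on both strands up to its N. The motifs did not overlap in these windows.
YAP1, chr11:102110197-102110496, plus strand: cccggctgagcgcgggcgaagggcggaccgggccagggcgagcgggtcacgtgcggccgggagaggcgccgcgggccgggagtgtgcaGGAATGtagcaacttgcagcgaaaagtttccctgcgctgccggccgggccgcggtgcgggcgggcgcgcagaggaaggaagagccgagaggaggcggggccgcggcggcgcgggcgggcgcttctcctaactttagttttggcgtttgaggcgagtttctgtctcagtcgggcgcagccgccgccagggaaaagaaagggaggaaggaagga
AJUBA, chr14:22982502-22982801, minus strand: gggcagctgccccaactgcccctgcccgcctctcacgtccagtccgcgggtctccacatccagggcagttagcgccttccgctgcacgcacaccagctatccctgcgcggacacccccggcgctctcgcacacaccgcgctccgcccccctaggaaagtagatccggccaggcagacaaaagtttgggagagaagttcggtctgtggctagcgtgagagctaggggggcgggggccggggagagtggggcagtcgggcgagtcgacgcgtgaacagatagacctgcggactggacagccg
AJUBA, second start, chr14:22976793-22977092, minus strand: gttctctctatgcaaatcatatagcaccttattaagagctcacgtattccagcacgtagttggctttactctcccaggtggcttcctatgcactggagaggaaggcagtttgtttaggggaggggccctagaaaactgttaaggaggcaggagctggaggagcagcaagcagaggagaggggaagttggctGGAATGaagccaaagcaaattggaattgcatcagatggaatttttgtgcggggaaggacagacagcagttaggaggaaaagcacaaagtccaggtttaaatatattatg
CCDC80, chr3:112641094-112641393, minus strand: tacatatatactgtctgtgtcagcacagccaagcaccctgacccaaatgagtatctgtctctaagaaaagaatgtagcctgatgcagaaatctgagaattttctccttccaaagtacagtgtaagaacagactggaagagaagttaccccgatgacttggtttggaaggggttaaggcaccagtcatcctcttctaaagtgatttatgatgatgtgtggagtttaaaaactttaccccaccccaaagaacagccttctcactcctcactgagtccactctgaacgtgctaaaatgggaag

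GGAATG stood once in the YAP1 window, at position -162 counted from the start, and once in the window of the second AJUBA start, at position -59. The first AJUBA window and the CCDC80 window did not hold these letters on either strand, and none of the 4 windows held TGANTCA. Over all 35116 windows of the same length, 14.03% held GGAATG and 7.71% held TGANTCA. Among the 21 windows of 18 genes in the list of YAP and TAZ targets used below, 10 held GGAATG and 2 held TGANTCA. A match describes letters and is no evidence of binding.

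Values are log2 intensities that the submitters' processing notes credit to RMA, a method of array summarisation. Before any comparison each array was shifted to a common median over genes, which took 0.09 from the changes at 0.5 nM and 0.16 from those at 0.25 nM. Most genes differ between groups by the test used. For 0.5 nM mimic against control, 63.0% of the 14812 genes passed limma at an adjusted p under 0.05 (33.2% higher and 29.8% lower). At 0.25 nM 64.1% passed (30.3% higher and 33.9% lower), and for 0.5 nM against 0.25 nM 62.2% (35.1% higher and 27.1% lower). On all 3 arrays of a group, values were exactly equal in 48.6% of rows at 0.5 nM, 42.0% at 0.25 nM and 47.8% in control. Arrays of different groups had 0 equal values in any row. The p-values measure the spread between arrays that tie in this way and are too small to that extent, so a count is read against these shares. Which arrays the authors processed together is not given in the sources used here. If each group was summarised on its own, an offset of a gene from that step and a response to the mimic cannot be told apart in any change between groups given here. A second test took each group as 1 unit, fitting limma to the 3 group means, both doses against control. It took its spread from the difference between the doses, any response to dose included. That spread was pooled mostly over all genes (33.1 prior degrees of freedom). This test passed 0.122% of genes (0.0203% higher and 0.101% lower), and 965 of 14812 at an unadjusted p under 0.05. A gene counts as measured here where a row carries its symbol, and 28794 rows carried none, so other genes may be on the array. Of 8 melanocytic markers 7 were measured, all brighter than the median gene, with TYR at a mean of 12.76 and PMEL at 12.09. Of 7 measured epithelial markers 1, KRT18, was brighter than the median gene, and the only measured immune and endothelial markers, CD14 and VWF, were dimmer. Levels of different genes on an array also depend on their probes. In bulk RNA, fewer cells that express a gene and less RNA per cell cannot be told apart.

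YAP1 messenger RNA, by its brighter row, lay close to its control level at both doses. This row read 9.16, 9.23 and 9.15 at 0.5 nM (mean 9.18 ± 0.045, SD, n = 3), 9.13, 9.16 and 9.16 at 0.25 nM (9.15 ± 0.013, n = 3), and 9.23, 9.23 and 9.27 in control (9.24 ± 0.021, n = 3). All 6 mimic arrays lay below the 3 control arrays, replicate 2 at 0.5 nM only in the third decimal (9.230, against 9.232 for the lowest control array). Non-overlap of this kind is common here. At 0.5 nM 73.9% of genes did not overlap with control (39.2% above and 34.8% below it), and at 0.25 nM 74.0% did not (35.1% above and 38.9% below).

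**Figure D1:**
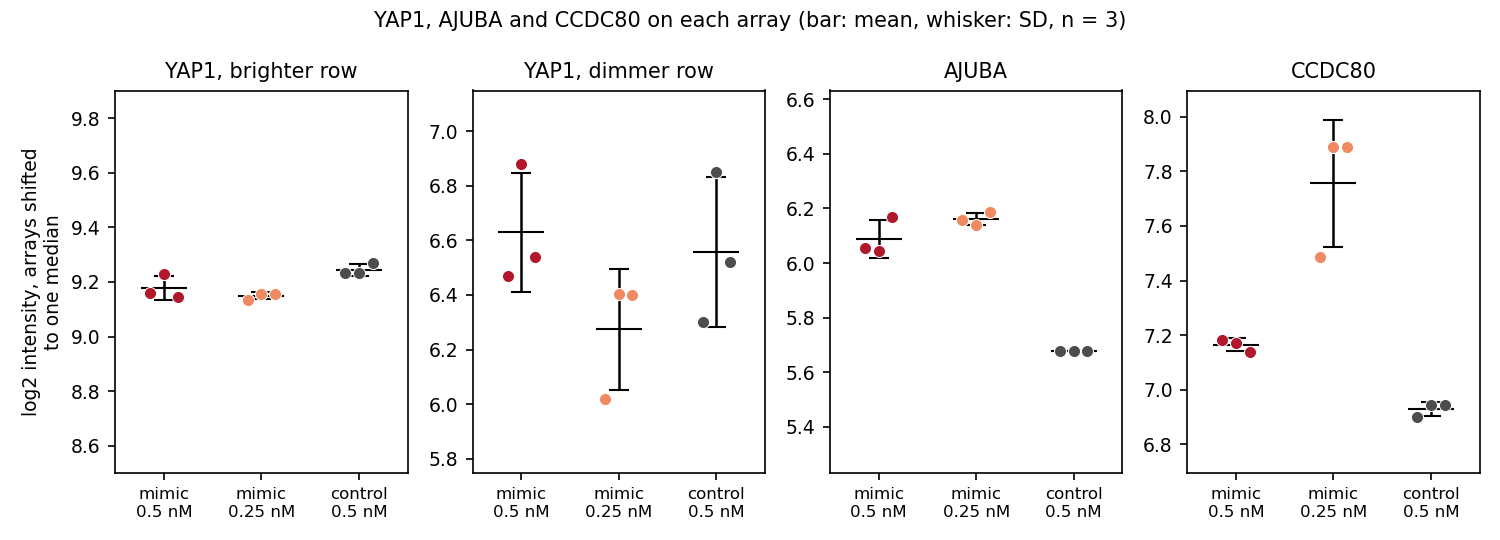
Log2 intensity of YAP1 (brighter and dimmer row), AJUBA and CCDC80 on each of 9 arrays, shifted to a common median; points are arrays, the bar is the group mean and the whisker its SD (n = 3). Each panel spans the same range of the log2 axis. YAP1 differs little between groups (means 9.18, 9.15 and 9.24 at 0.5 nM, at 0.25 nM and in control), while AJUBA and CCDC80 lie above control on every mimic array.

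The change of YAP1 was -0.07 at 0.5 nM (0.956-fold, 95% interval 0.919 to 0.993, limma adjusted p = 0.0433) and -0.09 at 0.25 nM (0.937-fold, interval 0.901 to 0.973, limma adjusted p = 0.00961). The call at 0.5 nM was lost once the replicate number entered as a block (adjusted p = 0.0588, limma), and on the values as deposited, without the shift, YAP1 lay above control at both doses, by 0.02 and 0.06 (limma adjusted p = 0.473 and 0.0735). Leaving out single arrays gave an adjusted p of 0.00318 to 0.129 at 0.5 nM, past the threshold for 1 of 9 arrays left out (0.5 nM replicate 2), and of 0.00148 to 0.0348 at 0.25 nM, past it for all 9. With each group as 1 unit the change over both doses was -0.08 ± 0.13 (SE), with an interval from 0.785-fold to 1.14-fold (limma adjusted p = 0.979). This SE was set mostly by the dose differences of other genes. The doses differed by 0.03 for YAP1 (0.5 nM minus 0.25 nM, interval -0.03 to 0.08, limma adjusted p = 0.325).

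The array holds a second, dimmer YAP1 row that varied more among replicates. It read 6.47, 6.88 and 6.54 at 0.5 nM, 6.02, 6.40 and 6.40 at 0.25 nM, and 6.30, 6.85 and 6.52 in control, so the groups overlapped. In this row replicate 1 was the lowest in every group. Array by array of the same number, all 3 at 0.5 nM lay above control and all 3 at 0.25 nM below it. This, and the blocked fits below, rest on the numbers, and the data did not tell replicates 2 and 3 apart. Replicate 3 at 0.5 nM (6.54) lay below control replicate 2 (6.85). The changes of the dimmer row were 0.07 ± 0.18 (SE) at 0.5 nM (limma adjusted p = 0.757) and -0.28 ± 0.18 at 0.25 nM (limma adjusted p = 0.213), neither past the threshold. With the replicate number as a block the SE was 0.078, and the row passed at 0.25 nM (adjusted p = 0.0248, limma) and not at 0.5 nM (0.453). In that fit its difference of 0.5 nM minus 0.25 nM, 0.35, also passed (adjusted p = 0.0116, limma), which the brighter row's did not. The rows thus differ in sign at 0.5 nM and in size at 0.25 nM.

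**Figure D2:**
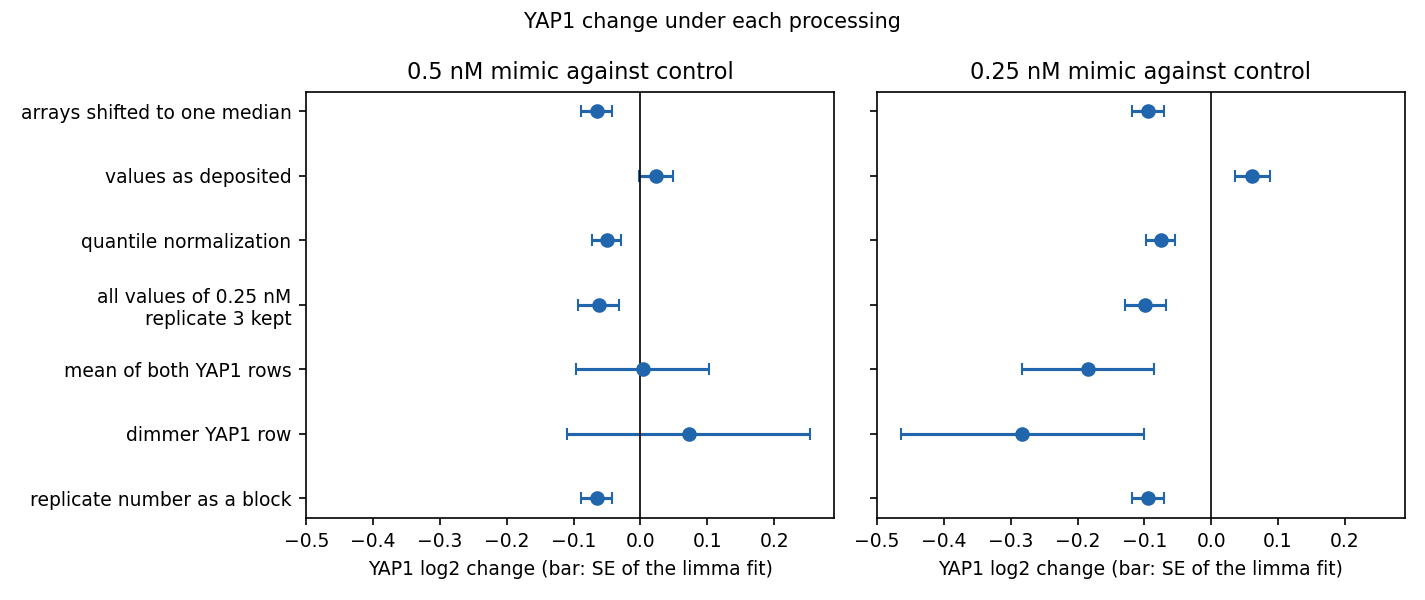
Log2 change of YAP1 against control at 0.5 nM (left) and 0.25 nM (right) under 7 ways of processing; points are fitted changes and bars the SE of the limma fit. With arrays shifted the changes are -0.07 and -0.09, and as deposited they are 0.02 and 0.06.

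Set against all genes, 21.3% had a smaller change than YAP1 in either direction at 0.5 nM, and 28.2% at 0.25 nM. Of 16 reported targets of miR-199a-3p, a list assembled with earlier results of these data known, 15 were measured. At 0.5 nM 3 passed as higher and 5 as lower (all genes 33.2% and 29.8%). At 0.25 nM 4 and 7 passed (all genes 30.3% and 33.9%), with YAP1 itself among the lower at both doses. As deposited these counts were 7 and 1, and 5 and 3. On that scale 45.0% of all genes passed as higher and 20.1% as lower at 0.5 nM, and 50.7% and 17.1% at 0.25 nM. With the replicate number as a block the list gave 3 and 6 at 0.5 nM, and 4 and 9 at 0.25 nM. Of all 14812 genes, 5093 and 4625 passed in that fit at 0.5 nM, and 4645 and 5331 at 0.25 nM. The list's median change was -0.07 at 0.5 nM (all genes 0.01) and -0.21 at 0.25 nM (all genes -0.02). YAP1 was itself the median gene of the list at 0.5 nM, and lay nearer to control than the list's median at 0.25 nM. With each group as 1 unit, 0 of these targets passed limma (3 at an unadjusted p under 0.05, against 965 of all 14812 genes).

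AJUBA lay above control at both doses. It read 6.05, 6.04 and 6.17 at 0.5 nM (6.09 ± 0.069, SD, n = 3), 6.16, 6.14 and 6.19 at 0.25 nM (6.16 ± 0.023, n = 3), and 5.68 on all 3 control arrays, whose deposited values were identical. No mimic array overlapped a control array, which also held for the 39.2% of genes above control at 0.5 nM and the 35.1% at 0.25 nM.

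The AJUBA change at 0.5 nM, a dose its choice did not use but one that shares the control arrays, was 0.41 ± 0.032 (SE), or 1.33-fold with a 95% interval of 1.26 to 1.40 (limma adjusted p = 1.86e-05). It passed in each of 16 other settings run, with changes of 0.37 to 0.50. Its choice for lying above the same control arrays favours a rise here too, so nothing is read from these passes. The mean level of AJUBA, 5.98, lay below the median of all genes, 6.25, so the setting without dim genes did not hold it. The SE of this change rests on arrays that tie within groups. With each group as 1 unit the SE for both doses together was 0.24 on a change of 0.45. That second SE was set mostly by the dose differences of other genes, not by the spread of AJUBA itself. Described only, AJUBA lay 0.48 above control at 0.25 nM (1.40-fold), and 0.64 as deposited. Its mean at 0.5 nM minus that at 0.25 nM was -0.07.

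CCDC80 also lay above control, and further so at the lower dose. Its arrays read 7.18, 7.17 and 7.14 at 0.5 nM (7.16 ± 0.024, SD, n = 3), 7.49, 7.89 and 7.89 at 0.25 nM (7.76 ± 0.23, n = 3), and 6.90, 6.95 and 6.95 in control (6.93 ± 0.025, n = 3). The 3 groups did not overlap. Between the doses 71.5% of genes did not overlap (40.3% above and 31.2% below at 0.5 nM), and nothing is read from this for a gene chosen at 0.25 nM. Replicate 1 at 0.25 nM lay well below its other two arrays.

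At 0.5 nM, against the control arrays also used in its choice, CCDC80 changed by 0.23 ± 0.10 (SE), 1.18-fold with an interval of 0.994 to 1.39. It did not pass (limma adjusted p = 0.0854). It passed on the values as deposited, at 0.32 (limma adjusted p = 0.0404, and 0.0508 with the replicate block), after quantile normalization, at 0.26 (limma adjusted p = 0.0394), and without 0.25 nM replicate 1, which enters the shared estimate of spread (limma adjusted p = 4.33e-05). As for AJUBA, nothing is read from these passes. As a description, the gene lay 0.83 above control at 0.25 nM (1.77-fold), or 0.96 without replicate 1 and 0.76 without either of the others. Of all genes, 63.5% had a smaller change than CCDC80 at 0.5 nM and 98.0% at 0.25 nM. For AJUBA these shares were 84.5% at 0.5 nM and 88.8% at 0.25 nM.

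**Figure D3:**
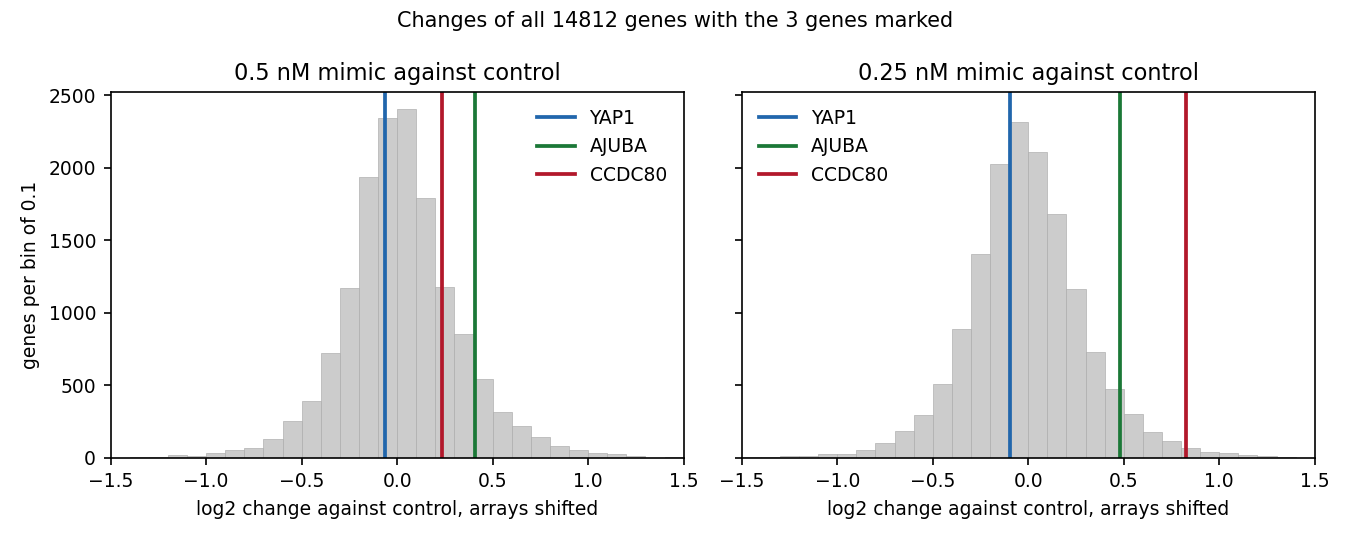
Number of genes per bin of log2 change against control (arrays shifted) for 0.5 nM (left) and 0.25 nM (right), with lines at YAP1, AJUBA and CCDC80. YAP1 (-0.07 and -0.09) lies near the centre at both doses, AJUBA (0.41 and 0.48) on the right flank, and CCDC80 at 0.23 at 0.5 nM and 0.83 at 0.25 nM.

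CCDC80 is also made by fibroblasts. Of 9 fibroblast markers 3 were measured, DCN, LUM and THY1, each below the median level of all genes, with DCN, decorin, dimmer than all but 2.7% of them. Their mean level ran from 4.53 to 5.03 over the arrays at 0.5 nM, from 4.42 to 5.10 at 0.25 nM and from 4.40 to 4.77 in control. At each dose 2 of 3 passed as higher (all genes 33.2% at 0.5 nM and 30.3% at 0.25 nM). THY1 lay 0.53 above control at 0.5 nM and 0.49 at 0.25 nM. The changes of DCN were 0.14 and 0.07, and those of LUM -0.02 and 0.14. Their part in the CCDC80 values was not tested. Of the relatives of CCDC80, SRPX and SRPX2 were not analysed here.

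The list of YAP and TAZ targets holds 23 genes, of which 13 were measured. Leaving out AJUBA and CCDC80, 3 of 11 passed as higher and 1 as lower at 0.5 nM, and 4 and 0 at 0.25 nM. Among all genes 33.2% passed as higher and 29.8% as lower at 0.5 nM, and 30.3% and 33.9% at 0.25 nM. As deposited the counts were 4 and 1, and 5 and 0 (all genes 45.0% and 20.1%, and 50.7% and 17.1%). With the replicate block they were 6 and 2 at 0.25 nM (4645 and 5331 of all 14812 genes). The median change of the 11 was 0.04 at 0.5 nM (all genes 0.01) and 0.11 at 0.25 nM (all genes -0.02). With each group as 1 unit 0 of the 11 passed limma (1 at an unadjusted p under 0.05, against 965 of all 14812 genes).

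Single targets differed in sign and size. CCN2 (CTGF), a matrix-associated signalling protein and much-used YAP readout, lay at -0.03 ± 0.23 (SE) at 0.5 nM and -0.12 ± 0.23 at 0.25 nM and passed at neither dose (limma adjusted p = 0.931 and 0.673), with an SD of 0.48 among its control arrays. Without control replicate 1, the lowest of these, it lay at -0.40 at 0.25 nM and passed (limma adjusted p = 0.0333). MYOF, a ferlin of membrane repair, rose by 0.37 at 0.5 nM (limma adjusted p = 0.0379, 8 arrays, without 0.25 nM replicate 3). That call was lost without control replicate 1 or 2 (limma adjusted p = 0.0865 and 0.0546), without 0.5 nM replicate 2 or 3 (0.106 and 0.105), and with the left-out value kept (0.237). At 0.25 nM MYOF lay at 0.11 (limma adjusted p = 0.531), and at 0.15 with the replicate block, where it passed (0.0125). AMOTL2, an angiomotin that binds YAP, rose by 0.35 at 0.5 nM and lay at -0.01 at 0.25 nM. On deposited values it lay at 0.15 at 0.25 nM and passed (limma adjusted p = 2.53e-12). Its deposited values were equal within each group, so this p-value measures no spread among its own arrays.

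DOCK5, an activator of Rac, rose by 0.36 at 0.25 nM (limma adjusted p = 0.00408). It lay at 0.19 at 0.5 nM (limma adjusted p = 0.0594). There it passed in a blocked fit (0.00816), as deposited (0.0203), after quantile normalization (0.00978) and without 0.5 nM replicate 1 (0.0426). ANKRD1, a dim gene here with a mean level of 4.12, fell by 0.13 at 0.5 nM and rose by 0.22 at 0.25 nM. AXL, a receptor tyrosine kinase, lay at -0.30 and -0.38 and did not pass (limma adjusted p = 0.111 and 0.0550). At 0.25 nM it passed with the block (limma adjusted p = 0.0292) and without 0.25 nM replicate 1 (0.0490) or 0.5 nM replicate 1 or 3 (0.00597 and 0.0469). At 0.5 nM it passed without 0.5 nM replicate 1, at -0.47 (0.00399).

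**Figure D4:**
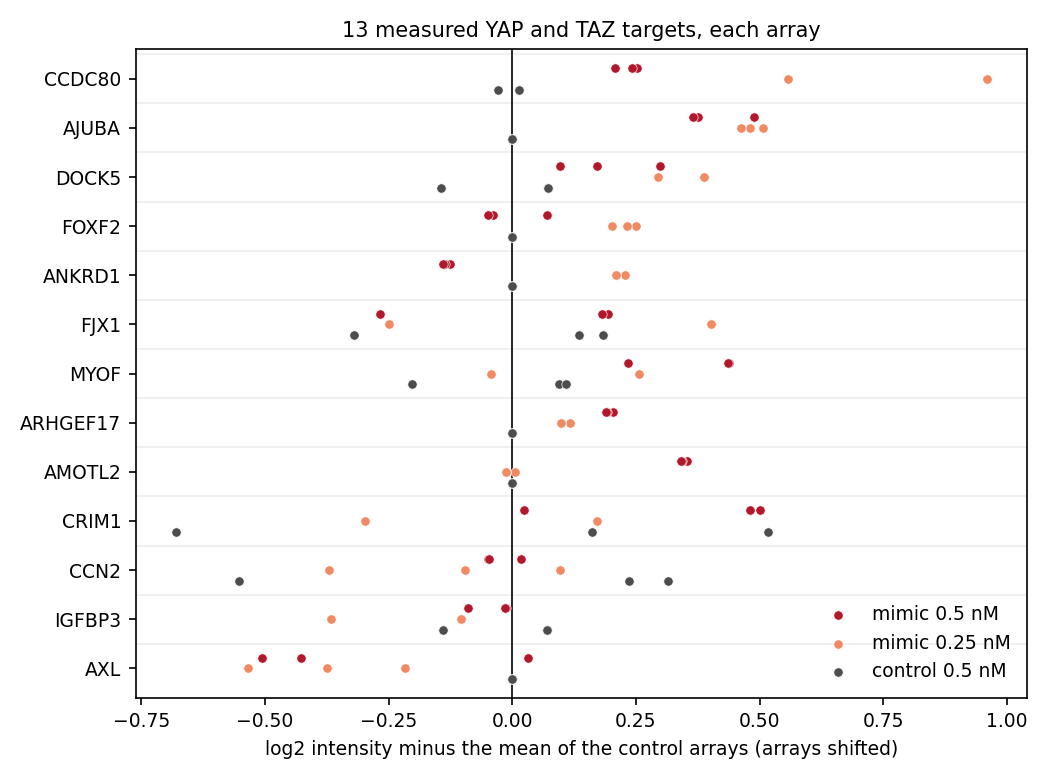
Log2 intensity of the 13 measured YAP and TAZ targets on each array minus the mean of the control arrays, in order of the change at 0.25 nM; points are arrays (red 0.5 nM, orange 0.25 nM, grey control), and arrays with equal values lie on each other. CCDC80 and AJUBA are the top 2 genes because they were chosen for their level at 0.25 nM; CCN2 and AXL lie lower in the order, and the control arrays of CCN2 spread widely.

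The partners of YAP were all measured, 10 genes with YAP1 itself. At 0.5 nM 2 passed as higher and 2 as lower (all genes 33.2% and 29.8%). At 0.25 nM 4 and 2 passed (all genes 30.3% and 33.9%). As deposited the counts were 2 and 0 (all genes 45.0% and 20.1%), and 7 and 1 (all genes 50.7% and 17.1%). With the replicate block they were 2 and 1 at 0.5 nM. WWTR1, which encodes TAZ, fell by 0.07 at 0.5 nM (limma adjusted p = 0.000445), a call lost after quantile normalization (0.154) and a direction that turned to 0.01 as deposited, and rose by 0.25 at 0.25 nM (limma adjusted p = 4.11e-07). TEAD1, a DNA-binding partner of YAP and TAZ, lay at -0.02 and -0.04 and did not pass. As deposited it lay at 0.07 and 0.11, and passed at 0.25 nM (limma adjusted p = 0.0136); shifted, it passed there at -0.08 without 0.25 nM replicate 1 (0.0143).

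TEAD3, fitted on 8 arrays without 0.25 nM replicate 3, rose by 0.36 at 0.5 nM and by 0.27 at 0.25 nM. VGLL1, which binds TEAD factors through a short motif as YAP does, rose by 0.11 and 0.40, the first not past the threshold after quantile normalization (limma adjusted p = 0.0733). TEAD3 and VGLL1, at mean levels of 5.8 and 5.25, lay below the median of all genes, 6.25. VGLL4, a competitor of YAP for TEAD, fell by 0.38 at 0.25 nM (limma adjusted p = 0.000148) and lay at 0.04 at 0.5 nM, where it passed without 0.25 nM replicate 1 (0.000791). With each group as 1 unit, 0 of the 10 passed limma (0 also at an unadjusted p under 0.05).

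Of 20 genes of the Hippo kinase cascade and its scaffolds 16 were measured. No row carried the symbol LATS1 or LATS2. At 0.5 nM 5 passed as higher and 3 as lower (all genes 33.2% and 29.8%). At 0.25 nM 6 and 3 passed (all genes 30.3% and 33.9%). As deposited the counts were 7 and 2 (all genes 45.0% and 20.1%), and 7 and 1 (all genes 50.7% and 17.1%). STK3, the kinase MST2, rose by 0.76 at 0.5 nM (limma adjusted p = 5.66e-07) and by 0.22 at 0.25 nM (limma adjusted p = 0.000733). The scaffold WWC1 (KIBRA) rose by 0.51 and 0.23, and FRMD6, a FERM protein upstream of the kinases, by 0.33 and 0.11. STK3 and WWC1, at mean levels of 5.65 and 5.11, lay below the median of all genes, 6.25. The FRMD6 call at 0.25 nM was lost without control replicate 1 (limma adjusted p = 0.0640) or 0.25 nM replicate 2 or 3 (0.0708 and 0.0703).

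TAOK1, a kinase that phosphorylates MST kinases, fell by 0.17 and 0.33, the first not past the threshold as deposited (limma adjusted p = 0.0517). WWC3 fell by 0.18 and 0.15, but stood at 0.0046 at 0.25 nM as deposited. SAV1, the scaffold of MST kinases, lay at -0.14 and -0.18 and did not pass, except without 0.25 nM replicate 1 at 0.5 nM (limma adjusted p = 0.0134) and without 0.25 nM replicate 2 at 0.25 nM (0.0270). The median changes of the 16 genes were -0.01 at each dose, against 0.01 and -0.02 for all genes. With each group as 1 unit, 0 of the 16 passed limma (0 also at an unadjusted p under 0.05).

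**Figure D5:**
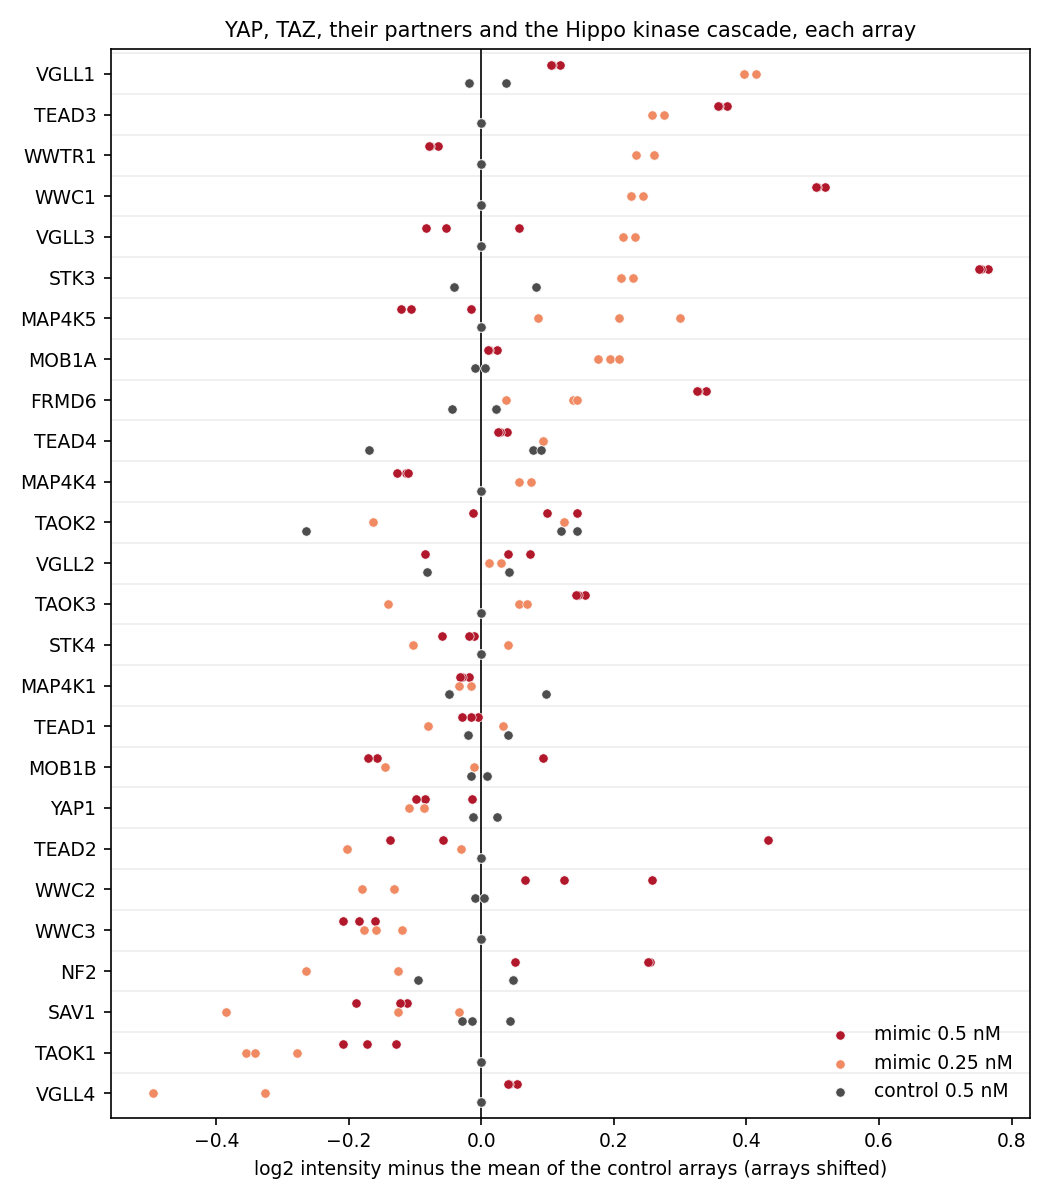
Log2 intensity of 26 genes (YAP1, WWTR1, their partners and the Hippo kinase cascade) on each array minus the mean of the control arrays, in order of the change at 0.25 nM; points are arrays (red 0.5 nM, orange 0.25 nM, grey control), and equal values lie on each other. STK3 (0.76) and WWC1 (0.51) lie above control at 0.5 nM, and VGLL4 (-0.38) and TAOK1 (-0.33) below it at 0.25 nM.

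Regulators of YAP at junctions and elsewhere were measured for 11 of 20 genes, AJUBA among them. Leaving AJUBA out, 3 of 10 passed as higher and 3 as lower at 0.5 nM (all genes 33.2% and 29.8%). At 0.25 nM 2 and 1 passed (all genes 30.3% and 33.9%). As deposited the counts were 5 and 1 (all genes 45.0% and 20.1%), and 6 and 1 (all genes 50.7% and 17.1%). FAT4, a giant cadherin, rose by 0.76 at 0.5 nM and lay at 0.03 at 0.25 nM, at a dim mean level of 4.05. At 0.25 nM FAT4 passed as deposited, at 0.18 (limma adjusted p = 0.000734), and without 0.5 nM replicate 1 (0.0259), and lay at -0.02 after quantile normalization. AMOT, which can hold YAP at junctions and actin, rose by 0.33 and 0.30. TJP1, the tight-junction scaffold ZO-1, fell by 0.18 at 0.5 nM and lay at 0.07 at 0.25 nM (limma adjusted p = 0.00174 and 0.0804). At 0.25 nM it passed as deposited (0.000375), after quantile normalization (0.0207) and without 0.5 nM replicate 3 (0.000656). With each group as 1 unit, 0 of these 10 passed limma (0 also at an unadjusted p under 0.05).

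The nearest relatives of AJUBA are LIMD1 and WTIP, and ZYX, LPP and TRIP6 belong to the wider zyxin family. Of these 5 genes 0 passed limma as higher and 2 as lower at 0.5 nM (1 and 2 in a blocked fit), and 0 and 1 at 0.25 nM (0 and 2 in a blocked fit). Among all genes, unblocked, 33.2% passed as higher and 29.8% as lower at 0.5 nM, and 30.3% and 33.9% at 0.25 nM. LIMD1 lay at 0.13 at 0.5 nM (limma adjusted p = 0.391, or 0.0359 when blocked) and at -0.09 at 0.25 nM. WTIP fell by 0.23 at 0.5 nM (limma adjusted p = 0.00806, and 0.0707 as deposited) and lay at -0.13 at 0.25 nM, where it passed without control replicate 1, at -0.20 (0.000270). ZYX, zyxin of focal adhesions, fell by 0.18 and 0.39 (limma adjusted p = 9.23e-06 and 3.60e-07, 8 arrays, without 0.25 nM replicate 3). With each group as 1 unit, 0 of the 5 passed limma (0 also at an unadjusted p under 0.05).

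The genes whose pattern was most like each of the 3 were sought by the root mean square difference of values centred on each gene's own mean over 9 arrays, among genes at or above the median level with no value left out (5957 to 5958 genes). For YAP1 these were GAPDH, the glycolytic enzyme, at 0.020 log2 units, TOP2B, a topoisomerase, at 0.021, and AHI1 at 0.022, against a median of 0.12 over all genes searched. GAPDH changed by -0.07 at 0.5 nM and -0.08 at 0.25 nM. For AJUBA they were NECAB3, WAC and CKAP4 (0.042 to 0.043, median 0.26), and for CCDC80 they were CENPN, a centromere protein, TIMM9 of the mitochondrial import machinery, and PLSCR4 (0.12 for each, median 0.39). CENPN lay 0.28 above control at 0.5 nM and 0.71 at 0.25 nM. Values that tie within groups make such a match mainly one of 3 group means.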

How the data were processed

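Per the submitters' processing notes, which name oligo, affy and RMA, the authors made the deposited log2 values with RMA; the log2 scale was read from the values themselves. Not given in the sources used here are tool versions, the genome build, the steps run and which arrays were processed together. The deposited table holds 44629 rows and 9 columns. GEO's platform annotation gives 1 gene symbol to 15835 rows and several to none; 28794 rows are unnamed here, and all 15835 gene IDs matched the RefSeq gene table. The brightest row was kept for 651 genes with several, which left 14812 genes. A 0 as first decimal occurs in 4178 to 4774 values of each other array but in 0 values of 0.25 nM replicate 3, so values of fewer than 10 digits were left out there (19.1% of genes, none of the 3 described).

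Arrays were shifted to a common median over genes with no value left out. limma 3.58.1 (R 4.3.3) fitted a mean per group over 9 arrays, with Benjamini-Hochberg adjustment over all genes, two-sided, threshold 0.05. A second limma fit with an intensity trend used the 3 group means (33.1 prior degrees of freedom). Both were tested on simulated data without values that tie within groups, so that test does not cover the ties seen here. The labels call the replicates biological triplicates; precision is limited by 3 arrays per group. Deviations from group means of same-numbered arrays correlated at 0.136 to 0.589 over genes, every pair above 0.1, which by the rule used takes the numbers as pairing the arrays. Replicates 2 and 3 were not told apart by this: arrays numbered 2 and 3 in different groups correlated at 0.165 to 0.359, while replicate 1 correlated negatively with both (-0.465 to -0.203). No label says what a number shares. The 3 genes, the lists and the tests were chosen with earlier results of these data known. Of each list, genes could be named that were among the 3 largest rises or falls at a dose without overlap with control, beside WWTR1, TEAD1, LATS1, LATS2, CCN1, CCN2, LIMD1, SRPX and SRPX2; LATS1, LATS2, CCN1, SRPX and SRPX2 were not analysed here. Alternatives were values as deposited, quantile normalization, all values kept, dim genes left out, the mean of a gene's rows, another eBayes prior, the replicate block and each array left out.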

Additional observations from a re-analysis of the deposited data

Results flagged for a closer look

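The difference between the doses passed limma for 9211 genes, although both groups were given the same mimic. Among the genes named here, the tested difference of 0.5 nM minus 0.25 nM passed for YAP1's paralogue and partners at -0.33 (WWTR1), 0.10 (TEAD3), -0.29 (VGLL1) and 0.43 (VGLL4). In the kinase cascade it was 0.54 for STK3, 0.28 for WWC1, 0.22 for FRMD6 and 0.15 for TAOK1. Among regulators and targets it was 0.73 for FAT4, 0.0337 for AMOT, -0.25 for TJP1, 0.21 for ZYX, 0.35 for AMOTL2 and -0.35 for ANKRD1. YAP1's brighter row did not pass this test (its dimmer row did with the replicate block), and AJUBA and CCDC80 were not tested, since they were chosen for their level at 0.25 nM. With 62.2% of all genes past the same threshold, a pass sets none of these genes apart.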

How the results depend on the processing

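The counts of genes past the threshold stayed within 1.5 times of the values reported for each dose and between doses under every alternative but 1, in which genes below the median level were left out and fewer genes were tested (3763, 3931 and 3624 for 0.5 nM against control, 0.25 nM against control and 0.5 nM against 0.25 nM). Leaving out single arrays gave 8612 to 9768, 8694 to 9591 and 8626 to 9461. The replicate block gave 9718, 9976 and 9679. On the values as deposited the splits turned to 6663 higher and 2975 lower at 0.5 nM (4918 and 4418 when shifted), 7516 and 2531 at 0.25 nM (4483 and 5015), and 3961 and 5321 between doses (5196 and 4015). The limma test on group means called 18 genes (965 at an unadjusted p under 0.05). It called 35 with all values kept, 38 with the mean of rows, and 0 as deposited, after quantile normalization and without the intensity trend (1205, 845 and 867 at an unadjusted p under 0.05). With single arrays left out it called 0 to 45. It called 0 without 0.25 nM replicate 1 or 3 (809 and 859 unadjusted), 7 without 0.5 nM replicate 1, 11 without 0.25 nM replicate 2, 31 without control replicate 1, and 43 and 45 without 0.5 nM replicate 2 and 3.

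YAP1 turned to 0.023 at 0.5 nM and 0.0616 at 0.25 nM as deposited, with and without the replicate block, to -0.0386 between doses (0.5 nM minus 0.25 nM) and to 0.0423 over both doses by group means. At 0.5 nM it turned to 0.0032 with the mean of both rows and 0.0721 with the dimmer row alone, with and without the block. The dimmer row, unblocked and blocked, and the block on deposited values were added after the data were seen. At 0.5 nM AJUBA and CCDC80 kept their sign in every alternative run for them. That dose was not used to choose them, but it shares the control arrays. Choosing genes above these arrays at 0.25 nM favours the same sign at 0.5 nM, so nothing is read from it. Changes of other genes that turned as deposited were WWTR1 at 0.5 nM (0.0144), TEAD1 (0.0719 and 0.1132), CCN2 (0.0624 and 0.0334), and at 0.25 nM WWC3 (0.0046), WTIP (0.0223), LIMD1 (0.0699) and AMOTL2 (0.1491). Quantile normalization turned FAT4 (-0.0156) and AMOTL2 (0.0104) at 0.25 nM, and the mean of rows CCN2 (0.0929) at 0.25 nM. Leaving out single arrays gave ranges that cross 0 for TEAD1 at 0.5 nM (-0.0268 to 0.0033), CCN2 (-0.3021 to 0.1316 at 0.5 nM and -0.3987 to 0.0349 at 0.25 nM), LIMD1 (-0.1915 to 0.0154) and MYOF (-0.0438 to 0.2565) at 0.25 nM. The cause of these turns was not tested.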
